A study of Mus musculus with 4 samples.

Results

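Mucins, trefoil factors and gastrokines are the main secreted products of the mucous cells of the stomach, and 9 of their genes are described here out of 46095 gene symbols counted. The members, *Muc1*, *Muc5ac*, *Muc5b*, *Muc6*, *Tff1*, *Tff2*, *Gkn1*, *Gkn2* and *Gkn3*, were chosen by name as products of surface and neck mucous cells. All 9 were tested, since each passed the filter on low counts.

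The data are RNA sequencing of the stomach of 12-week-old C57BL/6 mice, with 2 samples of each genotype and 4 in all. The WT samples are labelled wild type, and the paper describes its controls as *Myc fl/fl* littermates. The other samples, titled MYC-KI, have the genotype *Atp4b-cre;MycOE*, in which Cre made from the *Atp4b* promoter turns on a human *c-Myc* transgene in the parietal cell lineage. The comparison asks how gastric transcripts differ when *c-Myc* is overexpressed from that lineage, so the transgene is not driven by a promoter of mucous cells. The series' design text speaks of triplicates, whereas 2 samples of each genotype were analysed here. The labels do not say whether each sample is a separate mouse, and p-values measure only the spread between these samples.

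Gel-forming mucins are very large glycoproteins that make the gastric mucus layer, and trefoil factors are small secreted peptides that bind mucins and take part in repair of the epithelium. In the corpus, surface mucous (foveolar) cells make *Muc5ac*, *Tff1*, *Gkn1* and *Gkn2*, whereas mucous neck cells deeper in the gland make *Muc6* and *Tff2*, and *Gkn3* is a neck cell gastrokine in mice. *Muc6* and *Tff2* are also the classical transcripts of spasmolytic polypeptide-expressing metaplasia (SPEM), a state of the gland that is described where parietal cells are lost.

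The 4 samples held 36152857 and 30260305 counts (WT replicates 1 and 2) and 31350412 and 41463647 counts (MYC-KI replicates 1 and 2). In the table as deposited, the counts of the MYC-KI columns were out of register with the gene names. Over all genes, r between the genotypes in log counts was 0.524 as deposited. It was 0.985 after the MYC-KI counts had been assigned, in row order, to the names sorted by character code. Within a genotype r was 0.986 for WT and 0.983 for MYC-KI. The gastrokine rows moved by 1 place, the mucin rows by 2 and the trefoil rows by 397. Over the rows around each member r between the genotypes was between 0.978 and 0.984 in the re-sorted table, and slipping the counts by 1 further row in either direction lowered it to between 0.154 and 0.749. The deposited order would have given *Muc5ac* the MYC-KI counts of *Muc6*, 250075 and 163794, and would have given *Muc6* 0 counts in both MYC-KI samples. All values below are from the re-sorted table.

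Chi-square per degree of freedom between replicates was 28.9 for the WT pair and 97.9 for the MYC-KI pair, far above the 1 of counting error alone, and no samples were merged. WT replicate 2 stood apart in sex-linked transcripts. It had 17846 counts of *Xist*, against 85, 113 and 201 in WT replicate 1 and the MYC-KI samples. It had 5 counts of the Y-linked gene *Ddx3y*, against 1861, 1941 and 2623. The mouse *Myc* gene, which is not the transgene, stood at 31.6, 27.2, 21.7 and 24.4 normalized CPM (counts scaled to each library with TMM factors) in the order WT replicates 1 and 2, then MYC-KI replicates 1 and 2. Its log2 fold change was -0.35 ± 0.14 (SE) and did not pass the test (edgeR adjusted p = 0.163). The human transgene was not analysed here, so *Myc* does not check the labels.

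*Muc5ac*, the gel-forming mucin of the surface cells, was the member with the largest difference. Its level was 10198 and 12744 normalized CPM in WT and 1466 and 2701 in MYC-KI. Both MYC-KI samples lay far below both WT samples, and the groups did not overlap. *Muc5ac* fell by 2.46 ± 0.36 (SE) on the log2 scale, 5.51-fold lower in MYC-KI (edgeR quasi-likelihood test with Benjamini-Hochberg adjustment over 17643 genes, adjusted p = 0.0303). Bulk RNA cannot tell fewer cells of a type from less RNA per cell.

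The surface gastrokines, secreted proteins of the foveolar cells, were also low in MYC-KI. *Gkn2* was the member with the highest normalized CPM in WT, at 14788 and 17686, and stood at 3434 and 5374 in MYC-KI. *Gkn1* stood at 11796 and 13468 in WT and at 3015 and 4582 in MYC-KI. In both genes every MYC-KI sample was below every WT sample. *Gkn2* was 3.69-fold lower (log2 fold change -1.88 ± 0.28 SE, edgeR adjusted p = 0.0309), and *Gkn1* 3.33-fold lower (-1.73 ± 0.25 SE, edgeR adjusted p = 0.0309). The ratio of *Gkn2* to *Gkn1* counts was 1.25 and 1.31 in WT and 1.14 and 1.17 in MYC-KI, slightly lower in both MYC-KI samples, and this difference was not tested.

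*Tff1*, the trefoil peptide secreted together with *Muc5ac*, had the smallest difference of the surface members. Its level was 8108 and 9662 normalized CPM in WT and 3043 and 4537 in MYC-KI. Again the groups did not overlap, and MYC-KI replicate 1 was the lowest sample, as it was for the other surface members. *Tff1* was 2.34-fold lower (log2 fold change -1.23 ± 0.25 SE, edgeR adjusted p = 0.0490), just inside the threshold. With library size alone (-1.01, edgeR adjusted p = 0.0512) or with scaling to pan-epithelial genes (-1.58, edgeR adjusted p = 0.0534) it did not pass, and over all other alternatives its adjusted p ran from 2.53e-06 (DESeq2) to 0.268. Annotated *Tff1* exons overlap those of *Gm15318* on the other strand, and since the strand setting of the counting is not given in the sources used here, reads of the pair cannot be told apart.

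Leaving out a WT sample ended these calls. Without WT replicate 1 the log2 fold changes of *Muc5ac*, *Gkn2*, *Gkn1* and *Tff1* were -2.61, -2.01, -1.83 and -1.35, and without WT replicate 2, the sample that stood apart in *Xist*, they were -2.29, -1.75, -1.64 and -1.10. In those fits edgeR called 0 genes of the whole table (3554 and 3410 genes had an unadjusted p under 0.05, and no other tool was run on them). Adjusted p of these 4 genes was then between 0.201 and 0.268. Without a MYC-KI sample all 4 still passed, with log2 fold changes between -2.97 and -0.97.

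The neck cell genes gave another picture. *Muc6*, the gel-forming mucin of neck and deep antral gland cells, had 4338 and 5723 normalized CPM in WT and 7373 and 3667 in MYC-KI. *Tff2*, its partner trefoil peptide, had 5526 and 6472 in WT and 12341 and 5000 in MYC-KI. *Gkn3* had 2079 and 2649 in WT and 5803 and 2035 in MYC-KI. In each of the 3 genes MYC-KI replicate 1 was the highest sample and MYC-KI replicate 2 the lowest, so the groups overlapped.

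None of the 3 passed the test. *Gkn3* had a log2 fold change of 0.73 ± 0.53 (SE, edgeR adjusted p = 0.394), *Tff2* of 0.53 ± 0.46 (SE, edgeR adjusted p = 0.472) and *Muc6* of 0.13 ± 0.38 (SE, edgeR adjusted p = 0.837), the last turning to -0.28 with scaling to pan-epithelial genes. The values rest on MYC-KI replicate 1. Without it the log2 fold changes were -0.21 for *Gkn3*, -0.26 for *Tff2* and -0.45 for *Muc6*. Without MYC-KI replicate 2 they were 1.30, 1.04 and 0.55, and *Gkn3* (edgeR adjusted p = 0.0230) and *Tff2* (edgeR adjusted p = 0.0211) then passed.

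The remaining mucins are of other kinds. *Muc1*, a membrane-bound mucin of epithelial cells, had 395.8 and 434.5 normalized CPM in WT and 481.1 and 440.3 in MYC-KI. The genotypes did not overlap but lay close together, and the log2 fold change of 0.15 ± 0.10 (SE) did not pass (edgeR adjusted p = 0.364) and was -0.23 with scaling to pan-epithelial genes. *Muc5b*, a gel-forming mucin best known from airways and salivary glands, was low throughout. WT replicates had 596 and 137 counts, and MYC-KI replicates 401 and 168. Replicate 1 was the higher sample in both genotypes, and the log2 fold change of -0.55 ± 0.83 (SE, edgeR adjusted p = 0.689) was within the spread between replicates and turned to 0.66 without WT replicate 1 and to 0.057 without MYC-KI replicate 2.

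**Figure D1:**
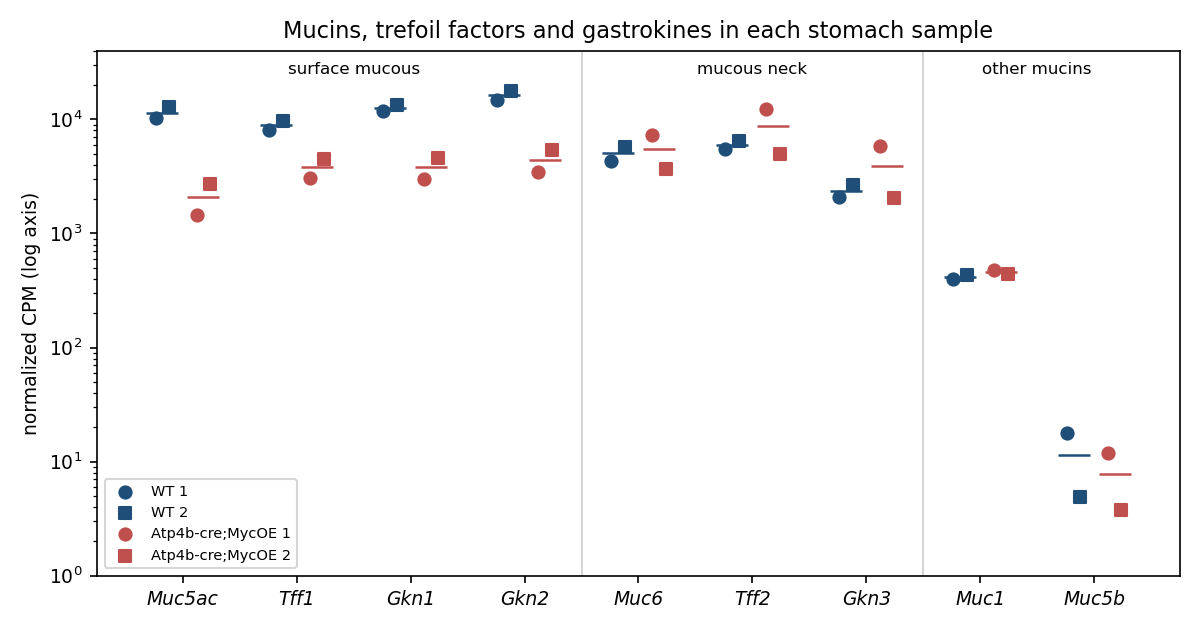
Normalized CPM of the 9 members (log axis) in each of the 4 samples, with WT in blue, MYC-KI (Atp4b-cre;MycOE) in red, circles for replicate 1, squares for replicate 2 and a bar at the mean of each genotype. Both red points lie below both blue points for Muc5ac, Tff1, Gkn1 and Gkn2, whereas for Muc6, Tff2 and Gkn3 MYC-KI replicate 1 is the highest and MYC-KI replicate 2 the lowest point.

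Calls required an adjusted p below 0.05 together with a difference of more than 1.5-fold in either direction. By that rule 4 of the 9 members were called, where 10.7% of all 17643 tested genes were. All 4 were lower in MYC-KI, against 5.08% of all genes called lower, and 0 were higher, against 5.65% called higher. The genotypes did not overlap in 5 of the 9 members, which is near the 64.9% of all genes of which the same was true. The median log2 fold change of the 9 was -0.55, beside 0.01 over all tested genes. Of all called genes 52.64% were higher in MYC-KI, and this split depends on scaling, being 75.46% with library size alone and 14.29% with scaling to pan-epithelial genes. The direction of *Muc5ac*, *Tff1*, *Gkn1* and *Gkn2* was the same under each scaling.

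As a share of all counts, the 9 members took 5.31% and 6.35% in WT and 4.0% and 3.05% in MYC-KI. The surface genes *Muc5ac*, *Tff1*, *Gkn1* and *Gkn2* together took 4.17% (95% Wilson interval 4.16 to 4.17) and 4.94% (4.93 to 4.95) in WT, and 1.19% (1.18 to 1.19) and 1.85% (1.85 to 1.86) in MYC-KI. The neck genes *Muc6*, *Tff2* and *Gkn3* took 1.11% (1.11 to 1.11) and 1.37% (1.36 to 1.37) in WT, and 2.76% (2.75 to 2.77) and 1.15% (1.15 to 1.16) in MYC-KI. These intervals cover counting error only and are far narrower than the distance between replicates. The surface share was lower in both MYC-KI samples, and the neck share was high in MYC-KI replicate 1 alone.

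The balance of neck to surface transcripts was higher in both MYC-KI samples. For every count of the 4 surface genes there were 0.266 and 0.277 counts of the 3 neck genes in WT, and 2.33 and 0.622 in MYC-KI. The ratio of *Muc6* to *Muc5ac* was 0.425 and 0.449 in WT and 5.03 and 1.36 in MYC-KI. That of *Tff2* to *Tff1* was 0.682 and 0.670, and 4.06 and 1.10. That of *Gkn3* to *Gkn2* was 0.141 and 0.150, and 1.69 and 0.379. In each ratio the WT samples were close to each other, the MYC-KI samples were both above them, and MYC-KI replicate 1 was well above MYC-KI replicate 2. In normalized CPM each neck gene was lowest in MYC-KI replicate 2, so its higher ratios come from its lower surface genes and not from higher neck genes. With 2 samples against 2, a two-sided exact permutation test cannot give a p below 0.333, and no other test was run on the ratios.

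Levels of different genes were compared per kilobase of annotated exon (normalized CPM per kb, mean ± SD, n = 2). In WT the order was *Gkn2* (20605 ± 2601), *Tff1* (12639 ± 1564), *Tff2* (10271 ± 1145), *Gkn1* (10105 ± 946), *Gkn3* (2761 ± 471), *Muc5ac* (1067 ± 167), *Muc6* (537 ± 105), *Muc1* (177 ± 11.7) and *Muc5b* (0.757 ± 0.607). *Tff2* and *Gkn1* overlapped and cannot be ordered, while the other neighbours did not overlap between samples. In MYC-KI *Tff2* came first (14847 ± 8888), with its lower sample, at 8562, still above every sample of the other members. *Gkn2* (5589 ± 1741), *Tff1* (5391 ± 1503) and *Gkn3* (4578 ± 3113) then overlapped each other, and *Gkn1* (3038 ± 887) overlapped *Gkn3*. *Muc6* (590 ± 280) was above *Muc1* (196 ± 12.3) and *Muc5ac* (194 ± 81.2), which overlapped, and *Muc5b* (0.521 ± 0.381) was again last. The large mucins thus ranked below the small secreted peptides on this scale in both genotypes.

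The members other than *Muc1* lie in 3 gene clusters, and each cluster held a surface gene that fell beside a neck gene that did not pass the test. Coordinates are those of GENCODE on GRCm38, the build (mm10) given in the submitters' processing notes. In the gastrokine cluster, 43.3 kb of chromosome 6, *Gkn1* is at chr6:87345650-87350942 (minus strand), *Gkn2* at chr6:87373357-87379497 (plus strand) and *Gkn3* at chr6:87383256-87388935 (minus strand). Only 3.8 kb separate *Gkn2*, with a log2 fold change of -1.88, from *Gkn3*, with 0.73. In the trefoil cluster, 40 kb of chromosome 17, *Tff2* (chr17:31141049-31144282) and *Tff1* (chr17:31161395-31165277) are both on the minus strand with 17.1 kb between them. In the mucin cluster, 239.6 kb of chromosome 7, *Muc6* (chr7:141633456-141655319, minus strand) is followed at a distance of 133.7 kb by *Muc5ac* (chr7:141788972-141819231, plus strand), and 19.8 kb on by *Muc5b* (chr7:141839070-141873084, plus strand). *Muc2*, the intestinal gel-forming mucin that lies between *Muc6* and *Muc5ac*, had 46.3 and 23.8 normalized CPM in WT and 43.8 and 6.11 in MYC-KI. *Tff3*, the intestinal trefoil factor next to *Tff2*, had 26.5 and 10.7 in WT and 41.3 and 4.57 in MYC-KI. Neither passed the test, and in both genes replicate 1 was the higher sample of each genotype. *Muc1* stands alone at chr3:89229057-89233381 (plus strand).

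**Figure D2:**
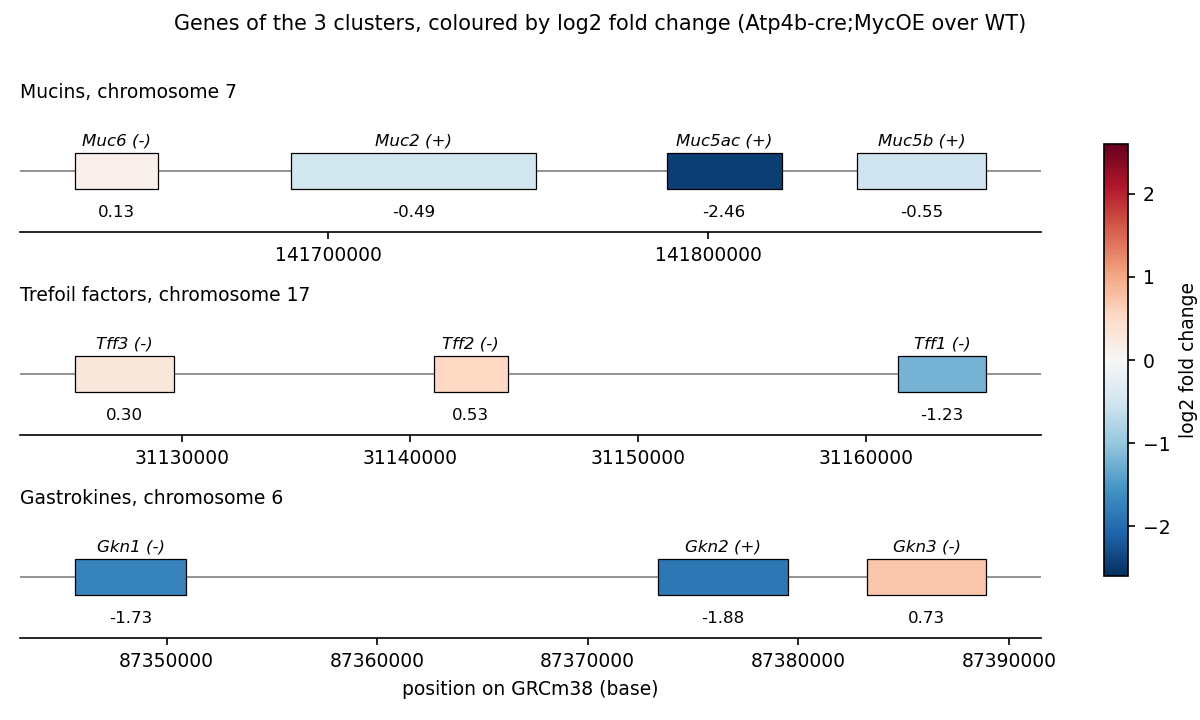
Map of the mucin, trefoil and gastrokine clusters on GRCm38 (base position on each axis, each cluster to its own scale), with 1 box from start to end of each gene, its strand in brackets, and its log2 fold change of MYC-KI over WT as number and colour. Blue boxes such as Muc5ac (-2.46), Tff1 (-1.23), Gkn1 (-1.73) and Gkn2 (-1.88) lie in the same clusters as Muc6 (0.13), Tff2 (0.53) and Gkn3 (0.73), which did not pass the test and whose values turn negative without MYC-KI replicate 1.

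Promoter sequence was at hand for 5 of the 9 members (*Muc1*, *Gkn1*, *Gkn2*, *Gkn3* and *Muc6*), from RefSeq on GRCm38.p6. The 250 bases upstream of the RefSeq start are shown for the neighbouring gastrokines, of which *Gkn1* and *Gkn2* fell and *Gkn3* did not pass, and for *Muc6*. Capitals mark GATAA, the core letters recognised by GATA factors, searched on both strands (TTATC on the strand shown). Each of these 4 sequences held 2 matches and that of *Muc1* held 0, whereas 22.58% of 32851 promoters of this length held at least 1 and 4.28% at least 2. The matches are thus shared by members that fell and members that did not pass the test, and a match describes letters only. The E-box CACGTG, in 6.02% of all promoters, was in none of the 5. The letters TATAA, in 22.78% of all promoters, were in those of *Muc1*, *Gkn2*, *Gkn3* and *Muc6* and not in that of *Gkn1*. Matches in most of these promoters were thus not particular to GATAA. The sequences lie at chr6:87350916-87351165 (minus strand, *Gkn1*), chr6:87373115-87373364 (plus strand, *Gkn2*), chr6:87388936-87389185 (minus strand, *Gkn3*) and chr7:141655394-141655643 (minus strand, *Muc6*), and are written 5′ to 3′ along the gene. For *Gkn1* and *Gkn2* the GENCODE exon begins slightly upstream of the RefSeq start, so the last bases shown lie in it. For *Muc6* the GENCODE gene begins downstream of the RefSeq start, at 141655319. The sequence shown ends at 141655394 and so does not adjoin it.
Gkn1: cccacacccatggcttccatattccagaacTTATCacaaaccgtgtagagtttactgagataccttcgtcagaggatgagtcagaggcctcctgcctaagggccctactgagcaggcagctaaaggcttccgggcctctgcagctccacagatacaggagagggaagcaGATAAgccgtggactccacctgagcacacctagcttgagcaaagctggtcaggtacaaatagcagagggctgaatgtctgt
Gkn2: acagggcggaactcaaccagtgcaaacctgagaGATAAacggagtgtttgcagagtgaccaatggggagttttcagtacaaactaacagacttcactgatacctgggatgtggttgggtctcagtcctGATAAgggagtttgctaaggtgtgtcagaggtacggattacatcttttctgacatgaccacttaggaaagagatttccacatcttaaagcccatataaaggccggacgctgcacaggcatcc
Gkn3: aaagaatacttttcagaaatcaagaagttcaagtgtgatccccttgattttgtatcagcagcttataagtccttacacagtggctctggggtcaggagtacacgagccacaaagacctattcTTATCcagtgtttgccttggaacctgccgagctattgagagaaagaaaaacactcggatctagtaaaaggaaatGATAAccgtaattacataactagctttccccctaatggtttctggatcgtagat
Muc6: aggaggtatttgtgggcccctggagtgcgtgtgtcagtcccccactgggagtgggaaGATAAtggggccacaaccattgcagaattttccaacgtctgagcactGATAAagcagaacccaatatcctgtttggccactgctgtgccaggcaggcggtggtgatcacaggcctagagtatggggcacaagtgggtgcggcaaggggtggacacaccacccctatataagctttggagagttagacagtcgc

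The genes most like *Muc5ac* and *Muc6* across the 4 samples were sought among 6196 tested genes whose log2 CPM averaged 5 or more, by the root mean square difference in log2 CPM centred on each gene's mean. For *Muc5ac* they were *Igfbp2* (0.14), *Dcbld2* (0.15) and *Lgals2* (0.21). *Igfbp2*, for example, stood at 94.0 and 111 normalized CPM in WT and 10.7 and 20.5 in MYC-KI. For *Muc6* they were *Casc4* (0.042), *Efcab14* (0.074) and *Sdk2* (0.080). *Casc4* stood at 54.9 and 69.4 in WT and 89.6 and 47.7 in MYC-KI, with MYC-KI replicate 1 highest as for *Muc6*. With 4 samples such likeness is a description only.

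Of 7 marker genes of the surface cells other than the members 4 were called lower, as *Muc5ac* was, and 0 higher, with a median log2 fold change of -0.68 beside 0.01 over all genes. For comparison with this and the following lists, 5.65% of all tested genes were called higher and 5.08% lower. *Psca*, a surface protein, was the most abundant of them in WT. It had 3846 and 4401 normalized CPM in WT and 726 and 1236 in MYC-KI (log2 fold change -2.07 ± 0.30 SE, edgeR adjusted p = 0.0299). The calpains *Capn9* (-1.96, edgeR adjusted p = 0.0381) and *Capn8* (-1.27, edgeR adjusted p = 0.0431), proteases of surface mucous cells, and the sulfotransferase gene *Sult1c2* (-0.68, edgeR adjusted p = 0.0380) were the others, and the last of these did not pass with library size alone (-0.46). *Ctse*, *Vsig1* and *Anxa10* had log2 fold changes of -0.56, -0.47 and -0.17 and did not pass, and *Anxa10* overlapped between the genotypes. In MYC-KI *Ctse*, at 1462 and 1731 normalized CPM, stood above *Psca* in both samples. There were 2.65 and 2.90 counts of *Muc5ac* per count of *Psca* in WT and 2.02 and 2.19 in MYC-KI, so this ratio too was lower in both MYC-KI samples, and the difference was not tested. The summed level of the 7 markers was 8226, 9714, 3841 and 4971 normalized CPM in the 4 samples in the same order, lower in both MYC-KI samples. Without either WT sample no gene of this or the following lists passed, and without MYC-KI replicate 1 *Capn8* (edgeR adjusted p = 0.0579) and *Sult1c2* (edgeR adjusted p = 0.0651) did not.

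Among 8 markers of mucous neck cells and SPEM 2 were called higher and 0 lower, with a median of 0.52 beside 0.01 over all genes. *Clu*, a secreted chaperone and the most abundant of them, had 1548 and 2075 normalized CPM in WT and 4544 and 4304 in MYC-KI (log2 fold change 1.29 ± 0.18 SE, edgeR adjusted p = 0.0290), and did not pass with scaling to pan-epithelial genes (0.91, edgeR adjusted p = 0.0699). *Wfdc2*, a secreted protease inhibitor, had 30.99 and 27.7 in WT and 83.2 and 67.9 in MYC-KI (1.36 ± 0.14 SE, edgeR adjusted p = 0.0198). Unlike *Muc6*, these 2 genes were high in both MYC-KI samples. *Cd44* (179, 190, 310 and 231 in the 4 samples) was also above WT in both but did not pass (0.55, edgeR adjusted p = 0.0968), and *Glipr1* (5.51, 4.27, 4.51 and 5.69) overlapped between the genotypes. *A4gnt*, the enzyme that adds the terminal sugar typical of MUC6, had 256 and 329 in WT and 465 and 248 in MYC-KI. It had the same order of samples as *Muc6*, and the ratio of *Muc6* to *A4gnt* counts was 16.9, 17.4, 15.9 and 14.8 in the 4 samples. *Aqp5* (108, 125, 223 and 117), *Cftr* (176, 273, 440 and 164) and *Sox9* (115, 127, 244 and 99.5) were also highest in MYC-KI replicate 1 and did not pass. The summed level of the list was 2419, 3150, 6313 and 5238 normalized CPM, of which *Clu* made up the larger part. Without *Clu* the other 7 markers summed to 872, 1076, 1770 and 934, so that MYC-KI replicate 1 was high and MYC-KI replicate 2 lay between the WT samples.

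Enzymes that build the O-linked sugars of mucins did not move together. Of 37 listed genes 34 were tested, 1 was called higher and 5 lower, beside 5.65% and 5.08% of all tested genes. Their median log2 fold change was -0.04. *B4galnt4* rose from 1.67 and 1.29 normalized CPM in WT to 26.7 and 18.2 in MYC-KI (log2 fold change 3.92 ± 0.30 SE, edgeR adjusted p = 0.0168). *B4galnt3*, the related N-acetylgalactosaminyltransferase, went the other way, from 348 and 270 to 71.5 and 51.8 (-2.33 ± 0.22 SE, edgeR adjusted p = 0.0195). *Galnt13* (-3.30, at about 1 CPM in WT), the fucosyltransferase genes *Fut9* (-2.11) and *Fut4* (-0.77) and the sulfotransferase gene *Chst4* (-1.48) also fell. *Fut4* lost its call with library size alone (-0.55) and *Galnt13* without either MYC-KI sample (edgeR adjusted p = 0.0959 and 0.0969). *C1galt1*, which extends the first sugar of the chain, and *Gcnt3*, a mucin-type branching enzyme and the most abundant gene of the list, had log2 fold changes of -0.24 and -0.06 and did not pass.

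Of 16 genes of mucus folding and secretion 3 were called higher and 1 lower, with a median of 0.13. *Bpifb1*, a secreted protein of mucosal surfaces, rose from 114 and 122 normalized CPM in WT to 1688 and 1524 in MYC-KI (log2 fold change 3.76 ± 0.12 SE, edgeR adjusted p = 0.00635). *Pigr*, the receptor that carries IgA across the epithelium (1.72, edgeR adjusted p = 0.0377), and *Dmbt1*, a secreted scavenger protein (1.55, edgeR adjusted p = 0.0316), rose as well, and *Fcgbp*, a mucus component, fell (-1.45, edgeR adjusted p = 0.0198). *Agr2*, the disulfide isomerase needed to fold mucins, had 827 and 976 in WT and 1094 and 982 in MYC-KI and did not pass (0.20 ± 0.13 SE, edgeR adjusted p = 0.344). Nor did the mucous cell stress sensor *Ern2* (0.44).

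Among 15 transcription factors of gastric mucous cells 3 were called higher and 2 lower, with a median of -0.12. *Sox2*, a factor of foregut epithelium, had 20.1 and 19.97 normalized CPM in WT and 76.5 and 80.0 in MYC-KI (log2 fold change 1.97 ± 0.08 SE, edgeR adjusted p = 0.00897). *Klf5* (1.09, edgeR adjusted p = 0.0176) and *Foxa1* (0.72, edgeR adjusted p = 0.0232) were the others that rose, the latter not passing with scaling to pan-epithelial genes (0.34, edgeR adjusted p = 0.195). *Foxa2* fell from 55.9 and 62.0 to 14.9 and 16.4 (-1.91 ± 0.11 SE, edgeR adjusted p = 0.0122), and *Gata4*, a factor of glandular stomach, from 320 and 342 to 186 and 172 (-0.89 ± 0.09 SE, edgeR adjusted p = 0.0201). *Foxq1*, which is required for *Muc5ac* in mouse surface cells, had 321 and 362 in WT and 286 and 346 in MYC-KI. The groups overlapped, and *Foxq1* did not pass (-0.11 ± 0.13 SE, edgeR adjusted p = 0.605).

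Of the other mucins and *Tff3*, 13 were listed and 9 tested, of which 1 was called higher and 1 lower (median 0.30). The membrane mucin *Muc4* had 98.2 and 152 normalized CPM in WT and 361 and 400 in MYC-KI (log2 fold change 1.61 ± 0.24 SE, edgeR adjusted p = 0.0308), and did not pass with scaling to pan-epithelial genes (1.24, edgeR adjusted p = 0.0504). *Dpcr1*, a mucin-like gene and the most abundant of the list, had 4008 and 4609 in WT and 900 and 1702 in MYC-KI (-1.73 ± 0.34 SE, edgeR adjusted p = 0.0474). *Dpcr1* thus resembled the surface members, with MYC-KI replicate 1 the lowest sample.

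**Figure D3:**
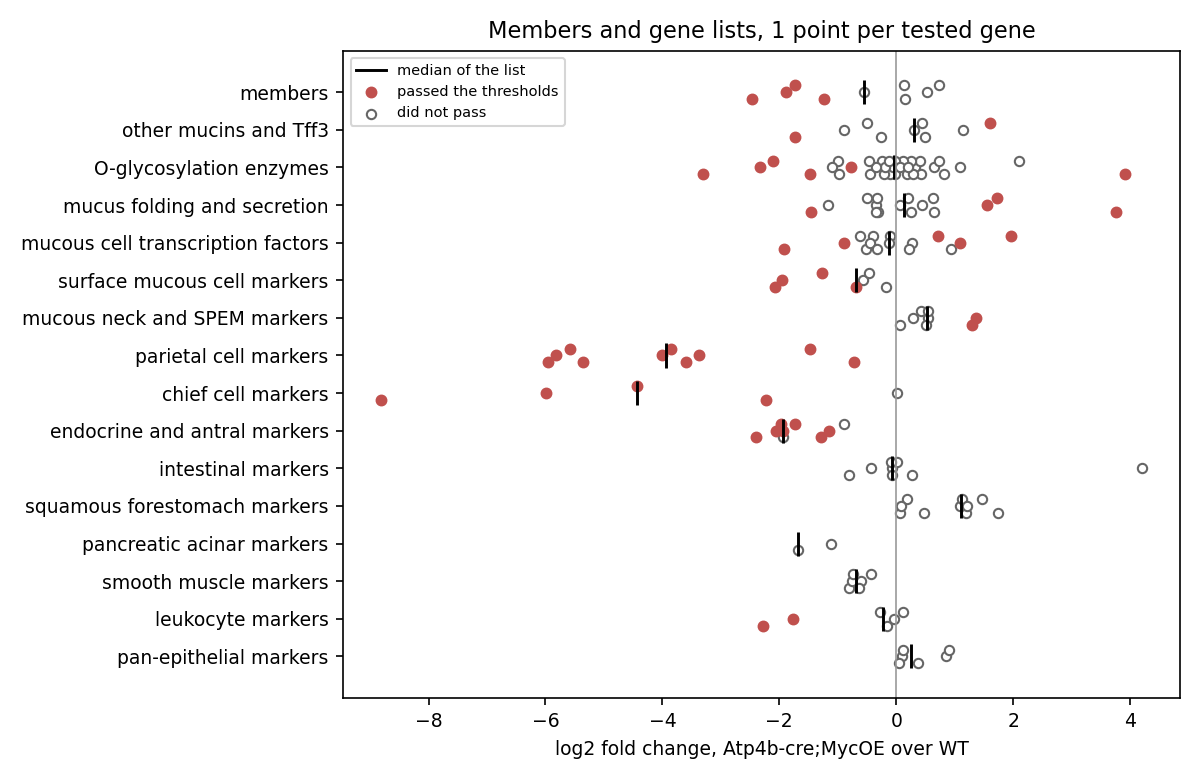
Log2 fold change of MYC-KI over WT (horizontal axis) for each tested gene of the members and of 15 gene lists (rows), filled where the gene was called and open where it was not, with a black bar at each median; Cela2a, with 0 counts in MYC-KI, is left out of the points. Members and surface markers have called genes only to the left of 0, and all 10 parietal markers lie to the left.

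Other cell types also differed between the samples, and their part in the results on the members was not tested. All 10 parietal cell markers were called lower (median -3.94). *Atp4a*, the most abundant in WT, had 7684 and 7949 normalized CPM there and 138 and 187 in MYC-KI. *Atp4b*, whose promoter drives the Cre, was 56.6-fold lower. The summed level of the 10 parietal markers was 11374, 11595, 426 and 490. Of 5 chief cell markers 4 were called lower (median -4.44), and *Pgc* alone took 7.52% and 7.07% of all counts in WT and 0.113% and 0.154% in MYC-KI. The summed level of the chief cell list was 84850, 80509, 1198 and 1518. The log2 fold changes of the surface members were smaller in size than these list medians, though not than that of every marker (*Slc9a4* -0.73, *Kcnq1* -1.47, *Bhlha15* -2.23, and *Pga5*, which did not pass, 0.016), and a test of that difference was not made. The stomach label is borne out in WT by these markers, and none of the parietal and chief markers was at 0 in MYC-KI.

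Markers of neighbouring tissue differed between single samples. Of 8 intestinal markers 0 were called (median -0.08), and their summed level was 1493, 618, 1689 and 325 normalized CPM. *Alpi* (716, 198, 799 and 66.4) led in replicate 1 of both genotypes. *Vil1* (312, 241, 333 and 193) was above it in replicate 2 of both. The summed intestinal level was high in replicate 1 of both genotypes, as were *Muc2*, *Tff3* and *Muc5b*. By contrast, *Muc6*, *Tff2* and *Gkn3* were high only in replicate 1 of MYC-KI. Not every intestinal marker followed the sum. *Reg3g* (8.19, 0.717, 136 and 30.2) was higher in replicate 1 of each genotype, but both MYC-KI samples were above both WT samples. It was the only marker of this list without overlap, and it did not pass (edgeR adjusted p = 0.111). *Cdx2* (10.2, 10.4, 22.3 and 2.62) was level between the WT samples. Of 10 squamous forestomach markers 0 were called (median 1.11), and their summed level was 2468, 1372, 866 and 4238, led by *Krt13* with 886, 512, 223 and 1368. Of 6 smooth muscle markers 0 were called (median -0.69), with a summed level of 7640, 4827, 2479 and 5270, led by *Myh11*. MYC-KI replicate 1, with the highest neck genes, thus had the lowest squamous and smooth muscle sums, and MYC-KI replicate 2 the highest squamous sum. The squamous markers did not all follow their sum. In MYC-KI replicate 1 *Krt13*, *Krt4*, *Krt6a* and *Sprr3* were at their lowest. *Krt5*, *Krtdap*, *Trp63* and *Dsg3* were above WT replicate 2 there. *Krt14* (98.2, 69.6, 103 and 360) was above both WT samples there, and *Ivl* (4.59, 2.47, 14.3 and 9.34) was highest there. The 6 pan-epithelial markers, led by *Krt8*, summed to 7921, 8658, 8907 and 9485, with 0 called (median 0.25), so that their sum was not lower in MYC-KI where *Muc5ac*, *Tff1*, *Gkn1* and *Gkn2* were.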

How the data were processed

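The authors deposited a table of raw read counts per gene symbol, with 46095 rows and 1 column per sample. The submitters' processing notes name HISAT2 and the build mm10, and the paper's methods name DESeq2 with the thresholds used here. Other steps, such as the counting tool, the annotation and the strand setting, are not given in the sources used here. Before any test, names were sorted by character code and the MYC-KI counts laid on them in row order.

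The test was the quasi-likelihood test of edgeR 4.0.16 (R 4.3.3), with genotype as the only term, TMM factors, filterByExpr and Benjamini-Hochberg adjustment. It was checked on simulated data with the same dispersion for every gene and both genotypes. That check does not cover the unequal spread between replicates seen here. The common dispersion corresponds to a coefficient of variation of 0.295. A standard error is the size of the log2 fold change over the root of its F statistic. For a gene at 0, up to 3 counts per library are allowed for at these depths.

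Members and lists were chosen with earlier results of these data known. Named genes are the 9 members, up to 6 called genes of each list by size, the most abundant gene of each cell type list, the genes most like *Muc5ac* and *Muc6*, and *Myc*. Other genes given with values were chosen after these were seen. *A4gnt* is in 2 lists. Alternatives were DESeq2 1.42.0, its size factors, library size, scaling to pan-epithelial markers, other filters and thresholds, the replicate number as a block (114 genes called), each sample left out, and the deposited row order.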

Additional observations from a re-analysis of the deposited data

How the results depend on the processing

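The number of called genes, 1892, was 3234 with DESeq2 and its own filtering (26731 genes with a p-value, against 17643), 2618 with edgeR over 26731 genes without the filter, 3011 with library size alone, 1113 with an absolute log2 fold change above 1 and 18580 in the deposited row order, and ran from 0 to 2470 when a sample was left out. In those fits the lone sample is assumed to vary like the other genotype, and 1 residual degree of freedom remains. Scaling moved the median log2 fold change of all genes from 0.01 to 0.23 with library size alone and to -0.36 with pan-epithelial markers, and the latter turned *Muc1* to -0.23 and *Muc6* to -0.28, both above that median. Only *Tff1* among the called members lost its call by scaling (-1.01 with library size alone, -1.58 with pan-epithelial markers).

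The replicate numbers do not pair the samples (r of the deviations of the first replicates 0.062 over 13509 genes). With the replicate block 114 genes were called, and *Muc5ac* (-2.52), *Gkn2* (-1.91), *Gkn1* (-1.76) and *Tff1* (-1.25) had edgeR adjusted p of 0.0541, 0.0562, 0.0582 and 0.0701. Of the 45 called genes named beside the members 28 lost their call with the block, and *Krt13* turned to -0.28.

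When a sample was left out, the log2 fold change ran from -2.97 to -2.09 for *Muc5ac*, from -2.24 to -1.59 for *Gkn2*, from -2.07 to -1.46 for *Gkn1*, from -1.54 to -0.97 for *Tff1*, from -0.45 to 0.55 for *Muc6*, from -0.26 to 1.04 for *Tff2*, from -0.21 to 1.30 for *Gkn3* and from -1.59 to 0.66 for *Muc5b*. All 45 called genes beside the members lost their call without either WT sample (edgeR adjusted p 0.196 to 0.263), 6 without MYC-KI replicate 1 and 3 without MYC-KI replicate 2.

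In the deposited row order the values were -6.64 for *Muc1*, -1.002 for *Muc5ac* (edgeR adjusted p = 0.0680), -8.73 for *Tff1*, -1.45 for *Gkn1*, -2.001 for *Gkn2*, -5.51 for *Tff2* and -7.04 for *Gkn3*. *Muc5b* and *Muc6*, with 0 counts in MYC-KI there, were at or below bounds of -7.13 and -15.92, set from 3 counts per library. The re-sorting itself accounts for these, since only the order of names differs.

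Among the other named genes that were not called, some values changed sign. With library size alone *Alpi* was 0.14 and *Ptprc* 0.18. With pan-epithelial scaling *Krt13* was -0.11, *Krt8* -0.32, *Casc4* -0.27, *Efcab14* -0.31 and *Sdk2* -0.30. With a sample left out, *Alpi* ran from -2.78 to 1.12, *Krt13* from -1.65 to 0.97, *Ptprc* from -0.44 to 0.28, *Krt8* from -0.032 to 0.12, *Casc4* from -0.38 to 0.53, *Efcab14* from -0.49 to 0.53 and *Sdk2* from -0.35 to 0.46. The causes of the shifts by scaling were not tested. *Muc5b* had the fewest counts of the members, 137 to 596, and its replicates differed by more than its log2 fold change.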

Other observations

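Endocrine and antral markers were low in MYC-KI beside the members. Of 9 markers 7 were called lower and 0 higher (median -1.94), with a summed level of 2531, 1669, 550 and 582 normalized CPM in WT replicates 1 and 2 and MYC-KI replicates 1 and 2. *Sst*, the somatostatin gene, fell from 196 and 154 to 31.9 and 34.1 (log2 fold change -2.41 ± 0.15 SE, edgeR adjusted p = 0.0131), and *Ghrl*, the ghrelin gene, from 584 and 446 to 135 and 134 (-1.94 ± 0.16 SE, edgeR adjusted p = 0.0175). *Gast*, the gastrin gene of the antrum, whose glands also make *Muc6*, had 396 and 224 in WT and 55.0 and 106 in MYC-KI and did not pass (-1.94 ± 0.44 SE, edgeR adjusted p = 0.0602).

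Leukocyte markers were low in number of counts, with a summed level of 55.2, 67.6, 38.7 and 31.01 normalized CPM over 6 genes (median -0.22). They were led by *Adgre1* in WT (17.7 and 22.3) and by *Ptprc* in MYC-KI (21.9 and 13.3). Of the 6 genes 2 were called lower and 0 higher, the macrophage gene *Adgre1* (-2.27 ± 0.24 SE, edgeR adjusted p = 0.0205) and *Itgam* (-1.76 ± 0.19 SE, edgeR adjusted p = 0.0212). Pancreatic acinar markers were near the floor. Of 8 genes 3 were at 0 in all samples and 3 were tested (median -1.69), their sum was 13.5, 10.3, 4.63 and 6.18, led by *Cel*, and *Cela2a*, with 0 counts in both MYC-KI samples, was at least 7.98-fold lower against a floor of 3 counts per library. The call of *Cela2a* was lost when any of the 4 samples was left out (edgeR adjusted p 0.0640 to 0.260), and those of the other genes named here as called when either WT sample was.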
